A study of Mus musculus with 13 samples.

Results

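The enzymes of the methionine cycle, of transsulfuration and of the route from cysteine to taurine form a family of 10 genes: Mat1a, Gnmt, Ahcy, Bhmt, Bhmt2, Mtr, Cbs, Cth, Cdo1 and Csad. They were found by their symbols in the table deposited for the mouse liver, and all 10 are among its 11779 genes. The family was chosen from the pathway with the authors' comparison of these livers known, and the fold changes of that comparison are not used here. The deposited names of the genes are those of the enzymes described below.

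RNA was sequenced from livers of Balb/c mice 5 days after an injection of antisense oligonucleotides (ASOs), short modified DNA strands that lead RNase H to cleave a chosen RNA. The ASOs carried GalNAc, a sugar that hepatocytes take up through the asialoglycoprotein receptor. The Liver LL35 ASO group (3 mice) received, by its labels, a mix of 5 ASOs against the long non-coding RNA LL35, also known as Falcor, and the Liver Luc ASO group (3 mice) received a control ASO against firefly luciferase, a gene that mice lack. The dose of the LL35 mix was 150 mg/kg, given per ASO in the labels and as the total in the study's methods. The study's own list of ASOs for mice is shorter than the mix in the labels by 1. AML12 cells, a line of mouse hepatocytes, were also sequenced (3 Luc ASO and 4 LL35 ASO samples on day 2), and are not analysed here.

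For each liver gene the authors' table gives a mean normalised count, averaged by the authors over both groups. This is the quantity used below. It carries no spread between mice, no value for a single liver and no value for a single group, so no difference between LL35 ASO and Luc ASO livers is reported and no test was run. Neither can it be said which neighbouring levels differ beyond the spread between mice. The reads per library are unknown from this table, and so is the precision that depth gives. The lowest mean normalised count in the table is 15.6 and the median is 235. The gene of LL35 was not analysed here, so the knockdown was not checked.

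Methionine is activated to S-adenosylmethionine, the methyl donor of the cell, and each methyl transfer leaves S-adenosylhomocysteine, which is split to homocysteine. Homocysteine is either methylated back to methionine or joined to serine and turned into cysteine, the route known as transsulfuration. Cysteine feeds glutathione, protein and taurine. The liver is the main site of methionine breakdown in mammals and holds both methylation routes as well as transsulfuration.

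The 10 genes lay high in the liver transcriptome. Longer transcripts give more reads, so levels are compared between genes mainly by the mean normalised count per kilobase of annotated exon. Other lengths, and counts without division by length, are given as alternatives. The main measure is written below as the level per kilobase. On this scale 8 of the 10 genes stood in the top 10% of the listed genes, which by construction holds 10.0% of the 11754 genes with an annotated length and begins at a level of 341 per kilobase. A 9th, Csad, stood above the median gene, and Mtr alone stood below it. The median level of the 10 genes was 1002 per kilobase, against 51.5 per kilobase for all listed genes. Together they made up 1.07% of the summed mean normalised counts of the table, with 0.698% from Mat1a alone. These are levels of whole liver, in which fewer cells of a type and less RNA per cell cannot be told apart.

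**Figure D1:**
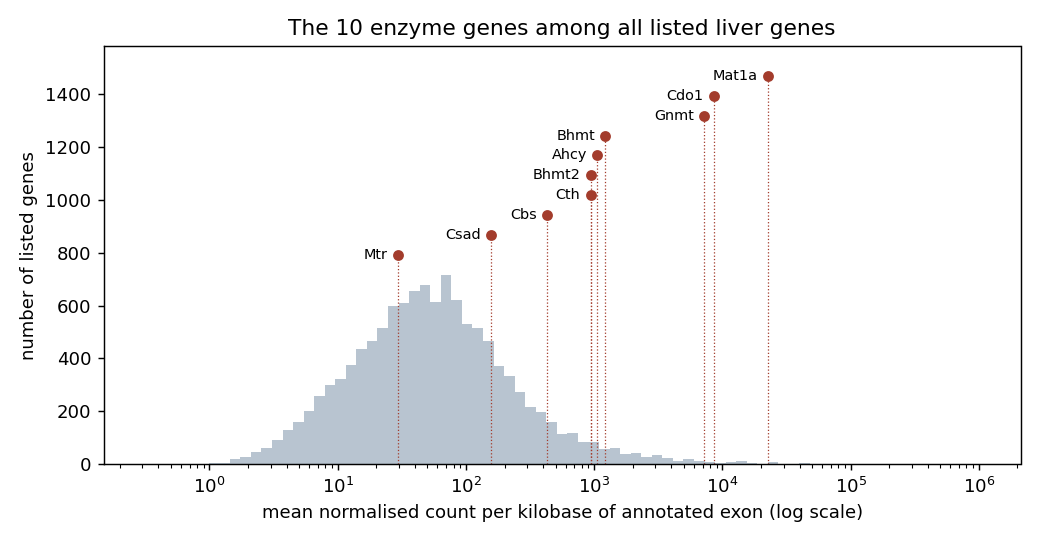
Grey bars count the listed liver genes (vertical axis) by their mean normalised count per kilobase of annotated exon (horizontal axis, log scale). Red points with dotted lines mark the 10 enzyme genes at their levels, and the height of a point has no meaning. Mtr, at 29.6 per kilobase, lies within the bulk of the genes and Mat1a, at 22750, lies in the upper tail.

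The spread within the family was wide: the highest level per kilobase, that of Mat1a, was 768 times the lowest, that of Mtr. The order from high to low was Mat1a, Cdo1, Gnmt, Bhmt, Ahcy, Bhmt2, Cth, Cbs, Csad and Mtr. On this scale the widest gap between neighbours was the 5.94-fold step from Gnmt to Bhmt, followed by 5.33-fold from Csad to Mtr, 2.73-fold from Cbs to Csad and 2.64-fold from Mat1a to Cdo1. Bhmt, Ahcy, Bhmt2 and Cth lay close together, and Bhmt2 exceeded Cth by only 1.01-fold. These distances depended on the length. By coding length the step from Gnmt to Bhmt was 1.73-fold and that from Csad to Mtr 6.09-fold. By coding length Bhmt also exceeded Ahcy 2.52-fold and Bhmt2 2.68-fold, against 1.16-fold and 1.29-fold on all exons.

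Mat1a, the liver form of methionine adenosyltransferase, makes S-adenosylmethionine. Its mean normalised count was 78898 and its level 22750 per kilobase, with 19 listed genes above it. It held 52.4% of the summed levels per kilobase of the 10 genes. The isozyme Mat2a, the catalytic subunit found in most tissues, had a mean normalised count of 1159 and a level of 258 per kilobase. Mat1a therefore exceeded Mat2a 88.1-fold per kilobase. This ratio was 66.5-fold with the longest transcript, 67.9-fold by coding length and 68.1-fold without division by length. Mat2b, the regulatory subunit that binds Mat2a, had a level of 71.8 per kilobase. Mat2a exceeded Mat2b 3.60-fold, or 2.34-fold with the longest transcript.

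Gnmt, glycine N-methyltransferase, uses up S-adenosylmethionine by methylating glycine to sarcosine. Its mean normalised count was 8743 and its level 7250 per kilobase, the third highest of the 10. Among the 8 other methyltransferases examined, the highest level was that of Inmt, an indole and thioether methyltransferase, at 1508 per kilobase. Gnmt exceeded it 4.81-fold, or 3.27-fold by coding length. Pemt, which makes phosphatidylcholine by methylating phosphatidylethanolamine, had a level of 1024 per kilobase, and Gnmt exceeded it 7.08-fold, or 3.27-fold by coding length.

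The promoter of Gnmt is printed because it is the only one of the windows examined for the family that holds a TATA box. The window runs from 250 bases before to 50 bases after the annotated start in RefSeq (build GRCm38.p6, chr17:46729116-46729415, minus strand). Capitals mark the letters of the TATA box (TATAA or TTATA), the CCAAT box (CCAAT or ATTGG) and the GC box (GGGCGG or CCGCCC), each searched on both strands.
Gnmt: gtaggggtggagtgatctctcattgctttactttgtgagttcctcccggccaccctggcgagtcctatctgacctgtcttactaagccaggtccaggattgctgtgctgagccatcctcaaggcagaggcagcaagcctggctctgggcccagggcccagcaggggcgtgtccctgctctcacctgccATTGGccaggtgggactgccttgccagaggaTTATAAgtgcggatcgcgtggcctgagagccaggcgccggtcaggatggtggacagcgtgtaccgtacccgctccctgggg
The 2 TATA matches overlap, 1 on each strand, with the first base 31 bases before the start, and a CCAAT match begins 62 bases before the start. Of 32851 RefSeq windows of this length, 24.9% hold a TATA match, 37.4% a CCAAT match and 35.7% a GC box match. A match describes the letters only and is not evidence of a bound factor.

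Ahcy, adenosylhomocysteinase, splits S-adenosylhomocysteine into homocysteine and adenosine. Its mean normalised count was 2957 and its level 1054 per kilobase. The related genes Ahcyl1 and Ahcyl2, whose proteins resemble the enzyme and are known as regulators, had levels of 216 and 17.1 per kilobase. Ahcy exceeded them 4.88-fold and 61.8-fold. By coding length these ratios were 2.51-fold and 13.5-fold. Adk, adenosine kinase, which removes the adenosine, had a level of 847 per kilobase. With the longest transcript Adk stood above Ahcy instead, at 1702 against 1163 per kilobase. So it did by coding length (6667 against 2282) and without division by length (7220 against 2957).

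The level of Ahcy is uncertain because much of its sequence recurs elsewhere. Of the 2799 different words of 50 bases in its annotated transcripts, 68.7% also occur in a transcript of another gene. The gene Gm4737 alone holds 66.0% of them and the pseudogene Gm9826 holds 30.2%. Bhmt shares 25.3% of its words, of which Gm5096 holds 24.1% and the pseudogene Bhmt-ps1 13.5%, where these shares overlap. For Bhmt2 and Cbs the shares were 4.99% and 1.11%, and for the other 6 genes no word was shared. STAR counts a read for a gene only where it aligns to a single place, so reads from shared words may be left out of the count. How many were left out is unknown, since a read that reaches beyond a shared word can still align to a single place. Divided by the words that are not shared, the mean normalised count of Ahcy was 3376 per 1000 words and that of Bhmt 1634 per 1000 words, which turned the order of these genes. Bhmt2 stood at 1025 and Cth at 957 per 1000 words. Ahcy, Bhmt, Bhmt2 and Cth therefore lay further apart than per kilobase. This division by unshared words was chosen after the levels were seen.

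Homocysteine returns to methionine by a betaine route and a folate route. The level of Bhmt, of the betaine route, was higher than that of Mtr, of the folate route. Bhmt, betaine-homocysteine methyltransferase, had a mean normalised count of 7030 and a level of 1221 per kilobase. Its paralogue Bhmt2, known to use S-methylmethionine as methyl donor, had a mean normalised count of 2342 and a level of 949 per kilobase. Mtr, the vitamin B12-dependent methionine synthase that takes its methyl group from folate, had a mean normalised count of 252 and a level of 29.6 per kilobase. Bhmt exceeded Mtr 41.2-fold and Bhmt2 exceeded it 32.1-fold. The ratio of Bhmt to Mtr ran from 27.9-fold without division by length to 85.7-fold by coding length, and that of Bhmt2 to Mtr was 9.28-fold without division by length. Of the listed genes, 33.9% had a lower level per kilobase than Mtr.

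Mtrr, the reductase that keeps methionine synthase active, was also low, with a level of 37.3 per kilobase. All 5 genes of the oxidation of choline, betaine and sarcosine, of which Chdh and Aldh7a1 lead to betaine and the others act after it or on related compounds, stood in the top 10%, from Chdh, choline dehydrogenase, at 428 per kilobase to Sardh, sarcosine dehydrogenase, at 1534.

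Promoters of Bhmt and Mtr are printed because these genes mark the ends of the range in homocysteine methylation. Both are RefSeq windows of build GRCm38.p6 on the minus strand, at chr13:93637709-93638008 for Bhmt and chr13:12258064-12258363 for Mtr, with capitals as for Gnmt.
Bhmt: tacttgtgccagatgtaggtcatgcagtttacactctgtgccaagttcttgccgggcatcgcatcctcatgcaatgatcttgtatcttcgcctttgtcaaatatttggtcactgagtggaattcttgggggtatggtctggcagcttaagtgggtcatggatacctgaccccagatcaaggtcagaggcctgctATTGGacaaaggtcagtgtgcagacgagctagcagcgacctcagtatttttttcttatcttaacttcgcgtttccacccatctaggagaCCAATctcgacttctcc
Mtr: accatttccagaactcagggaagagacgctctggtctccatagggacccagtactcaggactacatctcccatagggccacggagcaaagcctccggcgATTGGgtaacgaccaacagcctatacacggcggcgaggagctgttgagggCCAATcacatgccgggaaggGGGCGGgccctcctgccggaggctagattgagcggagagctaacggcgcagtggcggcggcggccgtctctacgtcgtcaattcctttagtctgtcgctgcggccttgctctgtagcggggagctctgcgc
The Bhmt window holds 8 CpG dinucleotides and a GC content of 48.0%, and the Mtr window 24 and 62.0%. The number of CpG dinucleotides over that expected from the base composition was 0.463 for Bhmt and 0.835 for Mtr, against a median of 0.384 over all windows. For Mtr, 82.0% of windows had a lower ratio. Each holds 2 CCAAT matches. Those of Bhmt begin 56 bases before and 33 bases after the start, and those of Mtr 151 and 101 bases before it. Only the Mtr window of this pair holds a GC box match, whose first base lies 81 bases before the start.

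RefSeq windows were matched for 7 of the 10 genes, with 2 for Csad. Across the 8 windows the CpG ratio ran from 0.223 in the 2nd window of Csad to 0.835 for Mtr, with values of 0.631 for Ahcy, 0.664 for Bhmt2 and 0.671 for Cbs. Mtr, with the lowest level per kilobase, had the highest CpG ratio of those examined. Csad, the next lowest by level at 158 per kilobase, had the lowest ratios, 0.366 and 0.223. A relation of the ratio to the level was not tested. Gnmt, the highest of the 7 by level, had a ratio of 0.383. Mat1a, Cdo1 and Cth were not examined in this way.

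Transsulfuration rests on 2 enzymes that use pyridoxal phosphate, the active form of vitamin B6. Cbs, cystathionine beta-synthase, joins homocysteine to serine, and had a mean normalised count of 3222 and a level of 430 per kilobase. Cth, cystathionine gamma-lyase, releases cysteine, and had a mean normalised count of 2620 and a level of 939 per kilobase. Cth exceeded Cbs 2.18-fold per kilobase. This direction depended on the length: without division by length Cth stood at 0.813 times Cbs, and with coding length it stood at 1.15 times. The annotated exons of Cbs cover 7485 bases, of which the longest coding sequence is 1683, while those of Cth cover 2791 bases with a coding sequence of 1194.

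**Figure D2:**
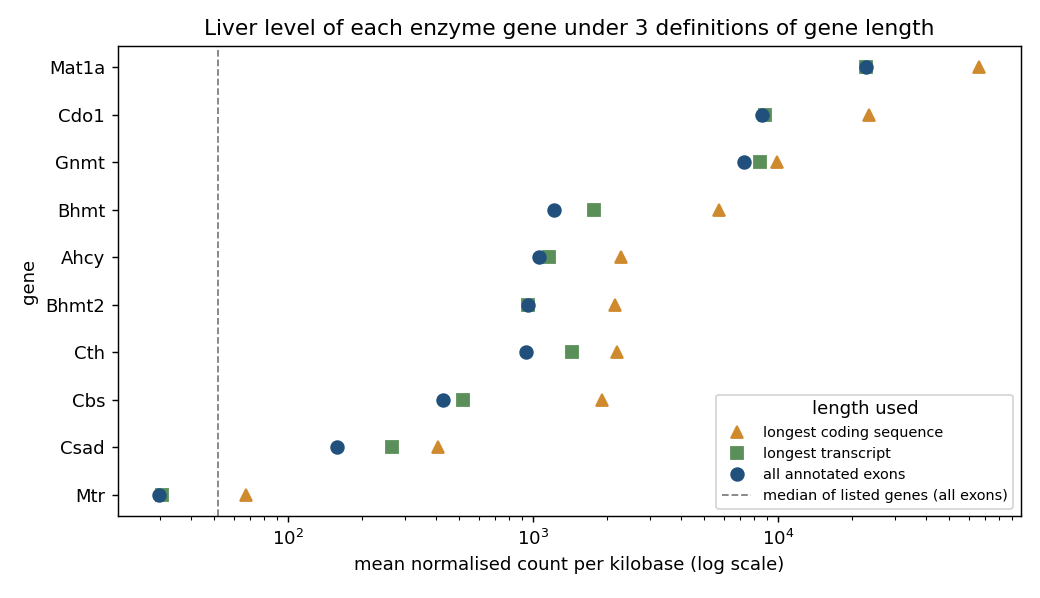
Each row is an enzyme gene and the horizontal axis is its mean normalised count per kilobase (log scale), with the length taken as all annotated exons (circles), the longest transcript (squares) or the longest coding sequence (triangles). The grey dashed line is the median of the listed genes on the scale of all exons. Mat1a, Cdo1, Gnmt and Bhmt lead in this order and Csad and Mtr come last on all 3 scales, while Ahcy, Bhmt2 and Cth change places.

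Cysteine that is not used for protein or glutathione is oxidised by Cdo1, cysteine dioxygenase, to cysteine sulfinate. Cdo1 had a mean normalised count of 14142 and a level of 8602 per kilobase, the second highest of the family. Csad, cysteine sulfinate decarboxylase, which turns the sulfinate into hypotaurine, had a mean normalised count of 605 and a level of 158 per kilobase. Cdo1 exceeded Csad 54.5-fold, or 23.4-fold without division by length. Cdo1 also exceeded Cth 9.16-fold, or 5.40-fold without division by length. A thiol dioxygenase that acts on cysteamine, Ado, had a level of 66.4 per kilobase. Got1, an aspartate aminotransferase that also acts on cysteine sulfinate, had a level of 1998 per kilobase, the highest of the 10 listed genes of cysteine and sulfide catabolism, and Selenbp2 had the lowest at 36.7. Words shared with other genes were examined for the enzyme family alone, and not for Selenbp2 or other pathway genes.

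Part of the exon sequence of Csad lies opposite another gene. Zfp740, on the opposite strand, covers 7.26% of its exon bases, and the antisense gene Gm15622 covers 3.25% of those of Bhmt. The libraries were made with a kit that keeps strand, but the strand setting of the count is not given in the sources used here. No other gene of the 10 had an overlapping exon in the annotation.

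Glutathione synthesis also draws on cysteine, at the step of glutamate-cysteine ligase. Gclc, the catalytic subunit of glutamate-cysteine ligase, had a level of 797 per kilobase, and Gclm, its modifier subunit, had 410, an order that turned with coding length, where Gclc stood at 0.501 times Gclm. Gss, glutathione synthetase, had 128. Cdo1 exceeded Gclc 10.8-fold per kilobase and 4.71-fold without division by length.

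Compared with the wider pathway, the 10 genes stood high. Lists of 71 other genes of sulfur amino acid and one-carbon metabolism were drawn up, of which 67 are listed. Of these, 31 (46.3%) stood in the top 10% of all listed genes, against 8 of the 10, and 50 stood above the median gene. Their median level was 258 per kilobase, about that of Mat2a. Their highest, Got1 at 1998 per kilobase, lay below Mat1a, Cdo1 and Gnmt. By coding length the highest pathway gene was Adk, at 6667 per kilobase against 9947 for Gnmt. Without division by length Aldh1l1, with a mean normalised count of 8761, stood just above Gnmt at 8743. No test was made of the difference between the 10 genes and the wider pathway, since the genes were chosen with earlier results known.

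The groups of the wider pathway differed among themselves. Of 13 listed folate enzymes, 6 stood in the top 10%, led by Aldh1l1, a cytosolic formyltetrahydrofolate dehydrogenase, at 1940 per kilobase, and the lowest was the mitochondrial enzyme Mthfd2l at 3.94. Of 11 listed genes of vitamin B12 and B6 handling, 4 stood in the top 10%, from Tcn2, a carrier of vitamin B12, at 689 per kilobase to Cd320, its receptor, at 15.6. Among the 8 methyltransferases 5 did so, and the lowest was Hnmt, histamine N-methyltransferase, at 67.6. For taurine use, 2 of 3 did, with Baat, which conjugates bile acids to taurine, at 1055 per kilobase and the taurine transporter Slc6a6 at 142. The polyamine and methionine salvage genes were the lowest group, with 1 of 8 in the top 10%, Adi1 at 430 per kilobase, and with Sms, spermine synthase, at 5.53.

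**Figure D3:**
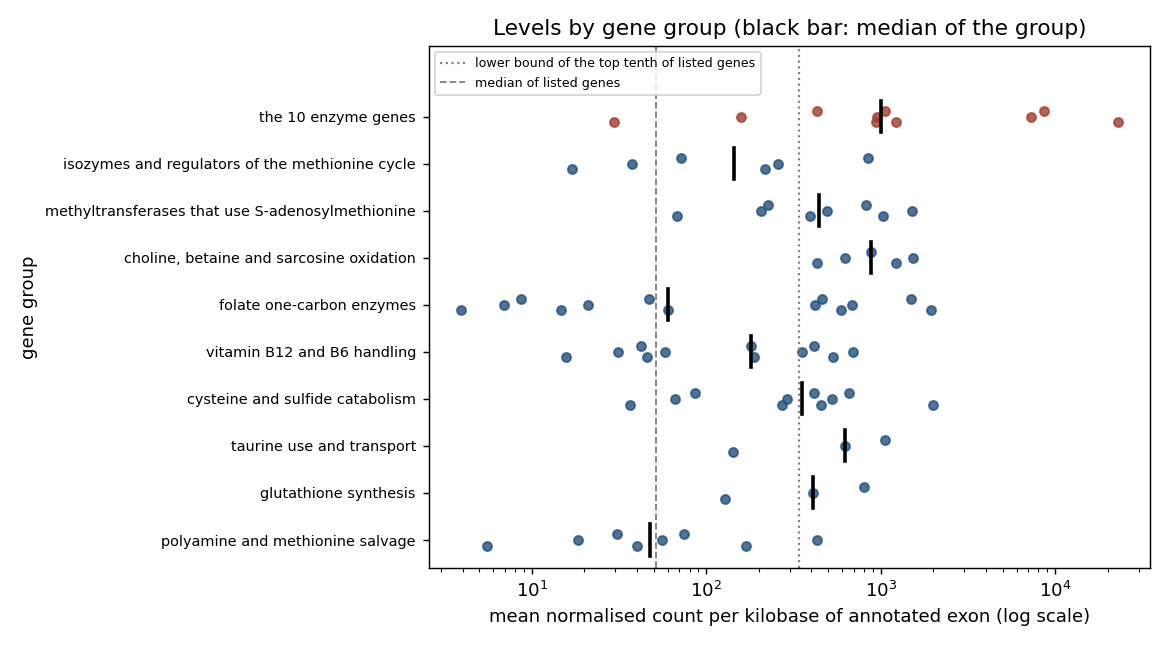
Each point is a listed gene, placed by its mean normalised count per kilobase of annotated exon (horizontal axis, log scale), with a row for each gene group and a black bar at the group's median. The dashed and dotted lines mark the median of all listed genes and the lower bound of their top 10%. The 10 enzyme genes (red) reach highest, with Mat1a, Cdo1 and Gnmt to the right of every blue point, and the folate group splits to both sides of the median line.

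The tissue label was checked with markers of hepatocytes. All 10 stood in the top 10%, from Hnf4a, a hepatocyte transcription factor, at 2550 per kilobase upwards, and Alb, albumin, was the highest of them, at 22.9 times the level of Mat1a per kilobase. Markers of other liver cells were present at lower levels: the highest were Clec4f of Kupffer cells at 791 per kilobase, Ecm1 of stellate cells at 413, Clec4g of endothelial cells at 289 and Spp1 of cholangiocytes at 91.9. The lowest of the same groups were Timd4 at 55.4, Lrat at 36.8, Lyve1 at 41.4 and Sox9 at 9.94. Of the Kupffer cell markers 2 of 5, and of the stellate cell markers 1 of 5, also stood in the top 10%. Of 5 cholangiocyte markers 2 are listed. Of 9 lymphocyte and neutrophil markers 3 are listed, from Cd3e at 4.56 to S100a9 at 35.9 per kilobase.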

How the data were processed

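RNA-seq of 6 mouse livers was analysed from the authors' processed table. According to the methods and the submitters' processing notes, total RNA was depleted of rRNA, libraries were made with a directional kit, and the authors aligned reads with STAR 2.5.3a, counted reads per gene with its quantification mode on an Ensembl annotation and scaled the counts in DESeq2 by the RLE method. The genome build and the release are not given in the sources used here. The deposited signal is the mean normalized count, which the authors averaged over all compared liver libraries. The authors' other 5 numeric columns hold their comparison of the groups (log2 fold change, its standard error, the Wald statistic and the p-values) and were not used, so no replicate error, depth or test is available.

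Exon, transcript and coding lengths were taken from GENCODE release M21 by Ensembl identifier for 11754 of 11779 genes, of which 11525 carry the same symbol there. Coding lengths came from the annotation, since no protein table was at hand. Levels were ranked among the listed genes in Python 3.11.15 with numpy 2.4.6, pandas 2.3.3 and scipy 1.17.1, and drawn with matplotlib 3.10.9. The ranking code was also run on simulated levels without noise, where the order is recovered by construction. That run checked the code alone. Alternatives used other lengths, protein-coding genes, or a mean normalized count of at least 50. Promoters came from RefSeq (GRCm38.p6, the C57BL/6J reference, whereas the mice were Balb/c), and positions are in that build alone. Words of 50 bases were compared over GENCODE transcripts in the sense direction, since the read length was not clear from the sources. The motifs and promoters shown were chosen after the sequences were seen.

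The 10 genes and all gene lists were chosen with earlier results of these data known. Named genes were the 10, their isozymes and partner enzymes, and the highest and lowest gene of each list, of which 1 partner enzyme is not reported here. The further genes Ado and Pemt were named for their reactions, after their values were seen.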

Additional observations from a re-analysis of the deposited data

How the results depend on the processing

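The count of 8 enzyme genes in the top 10% was the same with the longest transcript, with coding length, without division by length, among protein-coding genes and among genes with a mean normalised count of at least 50. For the other pathway genes the count of 31 moved to between 21, with coding length, and 32, with the longest transcript. Of 45 ratios between 15 pairs of genes under 3 other lengths, 21 stayed within 1.5 times, 21 differed by more in the same direction and 3 turned. Without division by length Mtrr stood at 0.769 times Mtr and Cth at 0.813 times Cbs. With coding length Gclc stood at 0.501 times Gclm. The pair of Adk and Ahcy, whose order also turned, was not among the 15. Counted on unshared words of 50 bases, an alternative chosen after seeing the data, Bhmt stood at 0.484 times Ahcy, against 1.16 times on all exons, and Gnmt at 2.07 times Ahcy, against 6.88 times. Mtr rose above the median gene only without division by length, where 52.0% of genes were lower. No paired analysis was possible because the table holds 1 mean over all libraries, and for the same reason no library could be left out. The depth per library is unknown.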
